A study of Mus musculus with 11 samples.

Results

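The genes described here encode the nuclear subunits of the mitochondrial respiratory chain and of ATP synthase. They were taken from the heart count table by matching gene identifiers to protein-coding symbols that begin with Nduf (followed by a, b, c, s or v and a digit), Uqcr or Atp5, or that are Cyc1, Sdha to Sdhd or a Cox4 to Cox8 subunit. Of 85 matching symbols, 83 reached a mean of 1 CPM (a count scaled to the size of the library) over the 11 mice and were kept, out of 22608 genes in the table. Cox6b2, with a mean of 1.03 CPM, was just inside this limit, and Cox7b2 (0.0840 CPM) and Cox8c (0 CPM) were outside it. The 83 genes comprise 36 genes of complex I, 4 of complex II, 9 of complex III, 17 of complex IV and 17 of complex V. Ndufa4 was counted in complex IV, where its protein resides. Atp5s, Cox7a2l and Ndufa4l2 were taken in by their names, although their products are a coupling factor B-like protein, a supercomplex factor and a paralogue of Ndufa4. Of the 83 genes, 82 passed the filter on low counts and were tested among 11319 genes. Cox6b2 was not tested.

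RNA of the heart (labelled ventricle) was sequenced from 11 male mice of 8 to 16 weeks on a C57BL/6J background (the labels of the WT mice give C57BL/6). The complete deletion (CD) mice, labelled WBS-CD, are heterozygous for a deletion of the interval that corresponds to the Williams-Beuren syndrome critical region, and wild-type (WT) littermates are the controls. Mice received JZL184, an inhibitor of the endocannabinoid-degrading enzyme monoacylglycerol lipase, at 8 mg/kg by intraperitoneal injection for 10 days, or vehicle (VEH). There were 2 WT and 3 CD mice on vehicle, and 3 of each genotype on JZL184, and the treatment label calls the VEH mice untreated. Replicates are separate mice, and every mouse of a group is named below by the letter of its column (C and D in WT VEH, A, B and D in WT JZL184, A, C and E in both CD groups). The deletion was present in the germline, and each library is a whole tissue extract of a heart. None of the 83 genes lies in the deleted interval.

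Electrons from NADH enter the chain at complex I and those from succinate at complex II. Ubiquinone carries them to complex III and cytochrome c carries them on to complex IV, which reduces oxygen. Complexes I, III and IV pump protons across the inner mitochondrial membrane, and complex V uses the gradient to make ATP. The heart muscle relies on this pathway for most of its ATP, and it expresses tissue-specific isoforms of several complex IV subunits (Cox6a2, Cox7a1 and Cox8b) in place of the widely expressed Cox6a1, Cox7a2 and Cox8a. Some subunits of complexes I, III, IV and V are encoded in the mitochondrial genome, and all subunits of complex II are nuclear.

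The promoters of these genes are known to share sites for the factors NRF1 and GABPA, which coordinate the nuclear subunits, and 67 of the 83 genes had a promoter window in the RefSeq set (GRCm38.p6, 250 bases before to 50 after the start). The NRF1 motif GCGCANGCG was found on either strand in 29.9% of them (20 genes), against 7.03% of the 27025 genes with a window. The ETS motif CCGGAAG, which GABPA binds, was found in 23.9% (16 genes) against 9.93%, the YY1 motif AAGATGGC in 14.9% (10 genes) against 3.19%, and the ERR motif TCAAGGTCA in 2.99% (2 genes) against 0.466%. The 4 motifs were searched on both strands, and none is contained in another. These matches are letters in a window and were not tested as binding sites. The sequence before the start is shown for 4 genes, up to the first base of the annotated gene, because they span the patterns described below: Cox6a1 and Uqcrh are short transcripts that were higher in CD VEH mice, Sdha is a long transcript that was not, and Ndufv3 had the highest fold-change among complex I genes that also passed the test with a correction for transcript length, after Ndufa4l2. Motif letters are in capitals, and the motifs begin 162 bases and 117 bases before the RefSeq start in Cox6a1 (a second match overlaps the former, beginning 161 bases before the start), 10 bases before it in Uqcrh and 98 bases and 55 bases before it in Sdha. The window of Cox6a1 also holds the ETS motif, outside the printed stretch.
Cox6a1, minus strand, chr5:115348982-115349208: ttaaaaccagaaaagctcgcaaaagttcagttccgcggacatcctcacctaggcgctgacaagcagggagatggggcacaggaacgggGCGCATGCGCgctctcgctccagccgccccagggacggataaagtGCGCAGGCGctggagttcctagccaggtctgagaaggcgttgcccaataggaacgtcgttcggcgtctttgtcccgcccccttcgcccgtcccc
Uqcrh, minus strand, chr4:116075072-116075320: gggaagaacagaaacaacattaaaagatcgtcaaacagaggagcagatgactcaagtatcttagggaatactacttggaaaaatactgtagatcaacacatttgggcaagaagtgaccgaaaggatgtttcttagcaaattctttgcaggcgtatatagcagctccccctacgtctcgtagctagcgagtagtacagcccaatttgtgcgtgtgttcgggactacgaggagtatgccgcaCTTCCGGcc
Sdha, minus strand, chr13:74350281-74350490: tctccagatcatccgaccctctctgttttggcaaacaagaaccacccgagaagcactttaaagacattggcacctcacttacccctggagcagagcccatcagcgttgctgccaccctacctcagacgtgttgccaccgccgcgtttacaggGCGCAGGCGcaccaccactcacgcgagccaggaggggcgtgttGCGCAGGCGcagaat
Ndufv3, plus strand, chr17:31519865-31520114: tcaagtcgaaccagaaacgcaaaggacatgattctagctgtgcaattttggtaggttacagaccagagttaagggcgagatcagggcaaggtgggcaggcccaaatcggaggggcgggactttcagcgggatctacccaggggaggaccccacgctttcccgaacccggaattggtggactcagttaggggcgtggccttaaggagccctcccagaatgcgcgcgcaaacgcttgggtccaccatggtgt
No match to the 4 motifs was found in the printed window of Ndufv3.

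Counts summed to between 69660329 and 92251550 per mouse, and the 83 genes took 3.43% to 3.97% of them. The mitochondrial genome took 36.4% to 46.6%. All 7 cardiomyocyte markers examined were abundant: their summed level was 44941 to 46296 CPM in WT VEH, 35027 to 44827 CPM in WT JZL184, 40012 to 42312 CPM in CD VEH and 43120 to 44628 CPM in CD JZL184. White adipocyte markers summed to at most 1.76 CPM in any mouse. Erythroid markers summed to 18832 CPM in CD VEH mouse A, which stood apart, and from 1419 to 5512 CPM in the mice of the other groups. All genes were fitted in a single edgeR model, and genes with an adjusted p-value under 0.05 were called differentially expressed.

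Per kilobase of transcript, the ATP synthase β subunit gene Atp5b was the most abundant of the 83 genes (mean over 11 mice 2094 CPM per kb). It was followed by Cox6a2 (1341 CPM per kb), Cox4i1 (1326 CPM per kb), Atp5g3 (1299 CPM per kb), Atp5a1 (1295 CPM per kb) and Cox7a1 (1219 CPM per kb), of which the first 4 lay close together. At the other end were Cox6b2 (1.87 CPM per kb), Cox4i2 (8.43 CPM per kb), Atp5s (10.8 CPM per kb) and Ndufa4l2 (14.1 CPM per kb). These levels use the median length of each gene's principal transcripts. Atp5g1 had 365.5 CPM per kb at a median of 2675.5 bp, but its principal transcripts range from 596 to 4715 bp. With the shortest, Atp5g1 would lie above Cox6a2. Summed over all 83 genes, the level was 36717 ± 584 CPM in WT VEH (SD, n = 2), 38989 ± 582 CPM in CD VEH, 36078 ± 537 CPM in CD JZL184 and 36937 ± 2883 CPM in WT JZL184 (SD, n = 3 each). The 3 CD VEH mice (38512 to 39638 CPM) did not overlap with the WT VEH or the CD JZL184 mice on this TMM-scaled level. As a plain share of all counts they did: the range was 3.60% to 3.76% in WT VEH, 3.72% to 3.97% in CD VEH, 3.71% to 3.88% in CD JZL184 and 3.43% to 3.69% in WT JZL184. As a share of the counts outside the mitochondrial genome, CD VEH (6.71% to 7.03%) again lay apart from WT VEH (6.11% to 6.21%) and CD JZL184 (6.05% to 6.24%). The WT JZL184 mice were spread from 35261 to 40266 CPM, with mouse A highest. In bulk tissue, fewer cells of a type and less RNA per cell cannot be told apart.

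**Figure D1:**
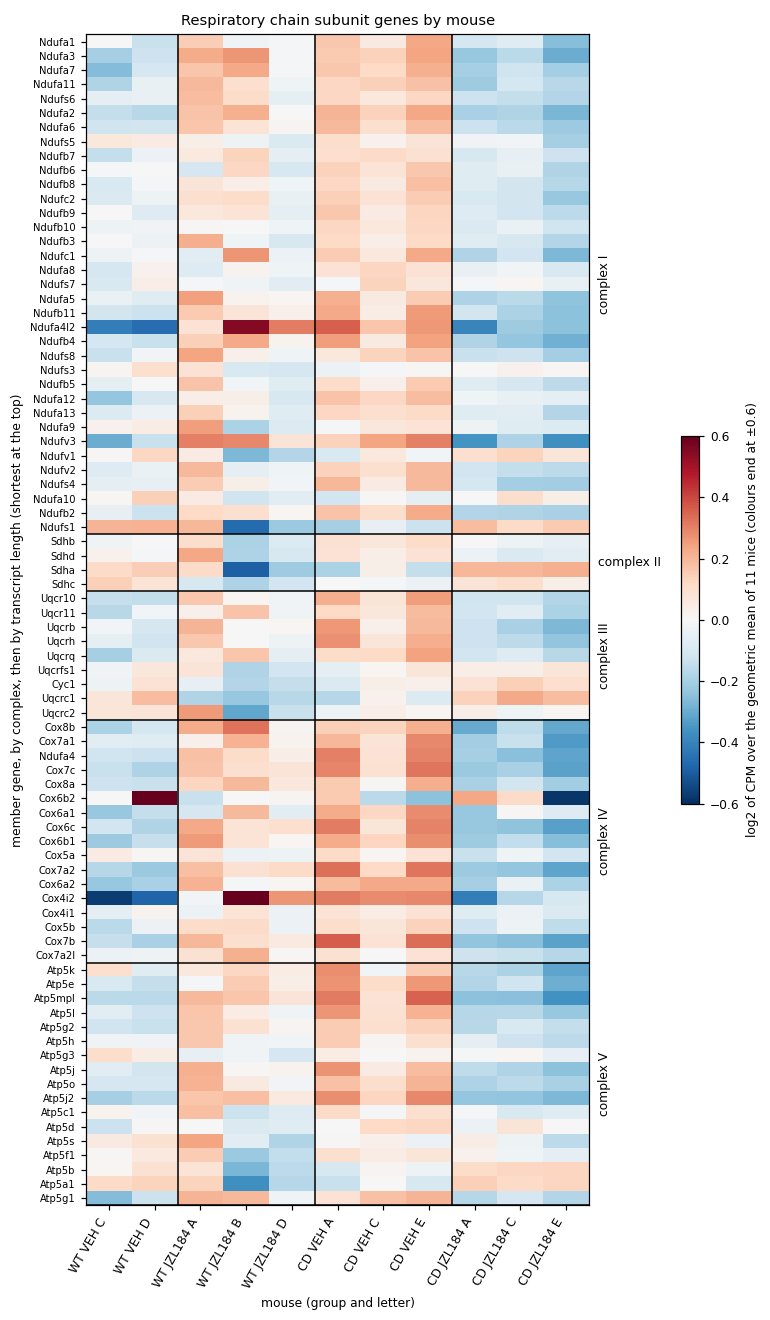
Heat map of 82 of the 83 member genes (rows, by complex and then by transcript length) in the 11 mice (columns), as the log2 of CPM over the geometric mean of the 11 mice. Most short transcripts are red in CD VEH and blue in CD JZL184, and the long transcripts Sdha and Ndufs1 are red in all CD JZL184 mice and blue in most CD VEH mice.

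To determine how the deletion relates to these genes, CD VEH was compared with WT VEH. Of the 82 genes tested, 33 were upregulated, against a background of 15.0% of all tested genes, and 0 were downregulated by edgeR, against 15.4% of all tested genes. In either direction 49 had an unadjusted p under 0.05, and DESeq2 called 3 downregulated. The median log2 fold-change was 0.20, and the range was -0.33 to 0.82. By complex, 11 of 36 genes were upregulated in complex I, 0 of 4 in complex II, 3 of 9 in complex III, 11 of 16 in complex IV and 8 of 17 in complex V. The medians of the complexes, whose differences were not tested, ranged from -0.03 in complex II to 0.37 in complex IV. The result rests on 2 WT VEH mice: without mouse C 2 genes were upregulated, without mouse D 10, and without CD VEH mouse E 20.

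JZL184 in CD mice was assessed by comparing CD JZL184 with CD VEH. In that comparison 55 of the 82 genes were downregulated, against 17.0% of all tested genes, and 2 (Uqcrc1 among them) were upregulated, against 16.8%. The median log2 fold-change was -0.27. Downregulated were 26 of 36 genes of complex I, 0 of 4 of complex II, 5 of 9 of complex III, 14 of 16 of complex IV and 10 of 17 of complex V. Without CD JZL184 mouse E or without CD VEH mouse E, 35 genes were downregulated. The 2 upregulated genes became 1 without CD JZL184 mouse A and 0 without CD JZL184 mouse C or E or CD VEH mouse A or E. This comparison and the previous one share the 3 CD VEH mice, so the opposite directions are not independent of each other. All 5 erythroid markers were downregulated as well (median -2.17, 1 of 5 with the length offset described below), and 0 were called in CD VEH vs WT VEH by edgeR, where 4 had an unadjusted p under 0.05. The erythroid sum was 2032 to 18832 CPM in CD VEH, highest in mouse A, and 1419 to 2195 CPM in CD JZL184. These ranges overlapped. Without CD VEH mouse A, 24 subunit genes were upregulated in CD VEH vs WT VEH and 41 downregulated in CD JZL184 vs CD VEH.

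In WT mice, JZL184 against VEH gave 20 upregulated genes, against 15.4% of all tested genes, and 2 downregulated genes (Sdhc and Uqcrc1), against 14.0%. This comparison shares the 2 WT VEH mice with the first. The median log2 fold-change was 0.13, and the upregulated genes comprised 7 of complex I, 9 of complex IV and 4 of complex V. The upregulated count was 1 without WT VEH mouse C, 4 without WT VEH mouse D and 4 when only these 2 groups were in the model. The downregulated count was 10 without WT JZL184 mouse A and 0 without either WT VEH mouse. Between the treated groups, CD JZL184 vs WT JZL184, 40 genes were downregulated, against 20.1% of all tested genes, and 5 were upregulated (Sdha, Sdhc, Cyc1 and Uqcrc1 among them), against 18.2%. Without CD JZL184 mouse E 23 genes were downregulated, and without WT JZL184 mouse A 11 genes were upregulated. Leaving out any other mouse of the 2 groups gave 1 to 3 upregulated genes. CD JZL184 and WT VEH differed in 0 of the 82 genes in either direction by edgeR, against 0.0442% of all tested genes higher and 0.141% lower. In that comparison 1 gene had an unadjusted p under 0.05, DESeq2 called 0, and the log2 fold-changes lay between -0.24 and 0.30 with a median of -0.06.

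The effect of JZL184 differed between genotypes in 58 of the 82 genes. The difference (log2 fold-change in CD mice minus that in WT mice) was negative for 51, against 26.2% of all tested genes, and positive for 7, against 25.3%. Among the 7 were Ndufs1, Sdha, Sdhc, Cyc1, Uqcrc1 and Atp5a1, which encode catalytic or core proteins or, for Sdhc, a membrane anchor of complex II. With the length offset described below, all 7 were still called positive. Of the 51, 10 were still called negative, 5 were called positive and 36 were no longer called. By sign alone, whether called or not, 28 of the 51 stayed negative and 23 turned positive.

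**Figure D2:**
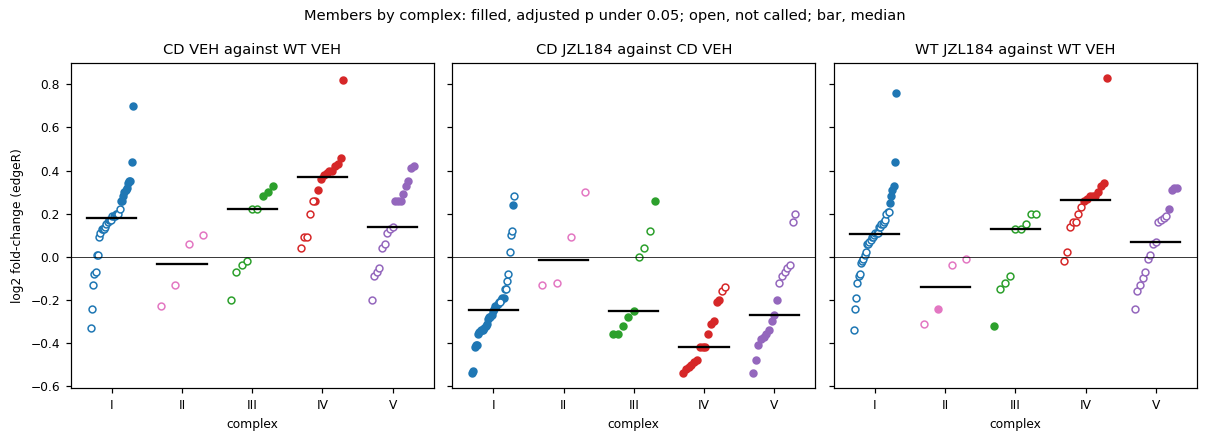
Log2 fold-change (vertical axis) of each tested subunit gene, by complex, in 3 comparisons. Filled points passed the test, open points did not, and bars mark the median, which lies highest in complex IV for both comparisons with WT VEH (0.37 and 0.27) and lowest there for CD JZL184 vs CD VEH (-0.42).

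These fold-changes followed transcript length in all tested genes, members or not. The tested subunit genes have short transcripts (median 810 bp, range 360 to 3171 bp) beside a median of 3001 bp for all tested genes with a length. Among all 681 tested genes under 1 kb, 48.3% were upregulated in CD VEH vs WT VEH, with a median log2 fold-change of 0.26, and 62.7% were downregulated in CD JZL184 vs CD VEH, with a median of -0.29. The 52 subunit genes under 1 kb had medians of 0.26 and -0.33 in the same comparisons. Genes over 4 kb had medians of -0.12 and 0.13. In WT JZL184 vs WT VEH the medians were 0.20 for all genes under 1 kb and 0.16 for the subunit genes of that length. The 7 subunit genes of 2 to 4 kb had a median of -0.13 in CD VEH vs WT VEH, 0.10 in CD JZL184 vs CD VEH and -0.24 in WT JZL184 vs WT VEH. The tilt was present in single mice: relative to the mean of the 11 mice, the median log2 level of the subunit genes under 1 kb was -0.11 and -0.10 in WT VEH, 0.16, 0.08 and 0.21 in CD VEH, -0.16, -0.12 and -0.21 in CD JZL184 and 0.16, 0.09 and -0.01 in WT JZL184. For all tested genes under 1 kb the values were -0.13 and -0.10, 0.16, 0.07 and 0.18, -0.15, -0.13 and -0.19, and 0.10, 0.16 and 0.02.

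**Figure D3:**
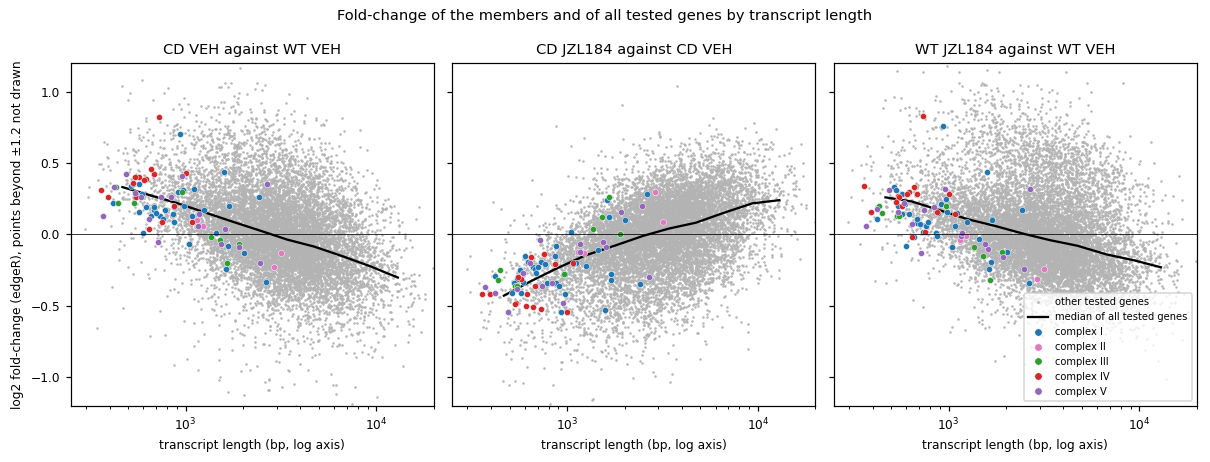
Log2 fold-change (vertical axis) against transcript length (horizontal log axis) in 3 comparisons, for all tested genes (grey), their running median (black line) and the subunit genes (coloured by complex). The subunit genes lie at the short end, near the black line, with Cox4i2 and Ndufa4l2 above it in both comparisons with WT VEH.

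With an offset for transcript length in the same model, which removes the part of the fold-change shared by genes of like length, 6 subunit genes were higher and 7 lower in CD VEH vs WT VEH (median -0.07), or 7.32% and 8.54%, beside 11.3% and 11.7% of all tested genes with the same offset. In CD JZL184 vs CD VEH 6 were higher and 9 lower (median 0.04), beside 12.6% and 12.9% of all tested genes. In WT JZL184 vs WT VEH 4 were higher and 12 lower (median -0.12), beside 14.2% and 12.1%, and in CD JZL184 vs WT JZL184 19 were higher and 7 lower (median 0.07), beside 17.3% and 18.3%. The interaction was then positive for 26 and negative for 10, beside 23.4% and 22.8%. By sign, whether called or not, 41 of the 82 genes turned in CD VEH vs WT VEH, 39 in CD JZL184 vs CD VEH and 36 in WT JZL184 vs WT VEH. Whether the length-dependent part arose in the tissue or in the making of the libraries was not tested. The values below are without the offset unless stated.

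**Figure D4:**
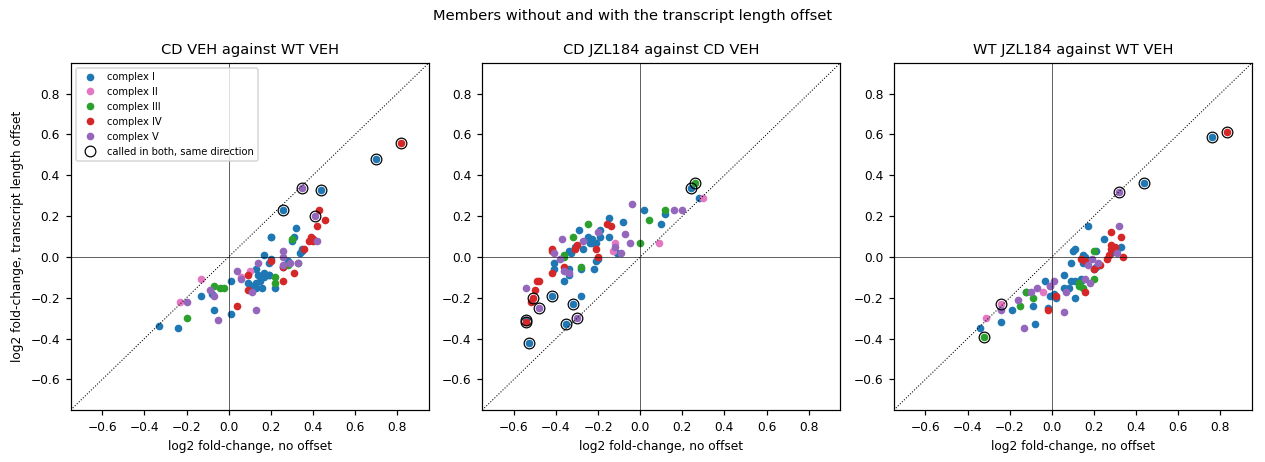
Log2 fold-change of each tested subunit gene without (horizontal axis) and with (vertical axis) the offset for transcript length, in 3 comparisons, with circles around the genes called in the same direction by both fits. These are 6 genes in CD VEH vs WT VEH, 11 in CD JZL184 vs CD VEH and 6 in WT JZL184 vs WT VEH.

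In complex I, the 29 accessory genes and the 7 core genes had different counts. The accessory subunits surround the core and hold no redox centre of the electron path, and 11 of them were upregulated in CD VEH vs WT VEH and 24 downregulated in CD JZL184 vs CD VEH. Most of these calls were lost with the length offset: 3 accessory genes were upregulated and 1 downregulated in the first comparison and 1 and 5 in the second. Ndufa4l2, counted here by its name only, was 1 of the 3 and 1 of the 5. Of the core genes 2 were downregulated in the first and 2 upregulated in the second. Ndufv3, an accessory subunit of the NADH-oxidizing module, was at 137 and 154 CPM in WT VEH, 185, 198 and 207 CPM in CD VEH, 131, 148 and 130.1 CPM in CD JZL184 and 207, 206 and 178 CPM in WT JZL184 mice. All WT JZL184 and CD VEH mice lay above all WT VEH and CD JZL184 mice. Its log2 fold-change was 0.44 ± 0.09 (SE, adjusted p = 0.00749) in CD VEH vs WT VEH and -0.53 ± 0.08 (SE, adjusted p = 0.00235) in CD JZL184 vs CD VEH, and it passed the test in both with the length offset as well (0.33 and -0.42). Ndufa3, a small membrane-arm subunit with a transcript of 515 bp, was at 178 and 186 CPM in WT VEH, 227, 224 and 239.5 CPM in CD VEH, 174, 182 and 166 CPM in CD JZL184 and 237, 245 and 203 CPM in WT JZL184 mice. Its log2 fold-changes of 0.34 ± 0.09 (SE, adjusted p = 0.0142) and -0.41 ± 0.08 (SE, adjusted p = 0.00381) became 0.02 and -0.03 with the offset.

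The 7 core genes of complex I encode proteins that carry the flavin and the iron-sulfur clusters or bind ubiquinone. By edgeR 0 of them were called in CD VEH vs WT VEH, where 4 had an unadjusted p under 0.05. In CD JZL184 vs CD VEH, Ndufs8 and Ndufv2 were downregulated. Ndufs1, the largest iron-sulfur subunit, had the lowest log2 fold-change of the 82 genes in CD VEH vs WT VEH, -0.33 ± 0.14 (SE, adjusted p = 0.0989), and a value of 0.28 ± 0.13 (SE, adjusted p = 0.114) in CD JZL184 vs CD VEH, neither of which passed. It was at 706 and 707 CPM in WT VEH, 534, 592 and 559.9 CPM in CD VEH, 696, 664 and 684 CPM in CD JZL184 and 704, 446 and 525 CPM in WT JZL184 mice. WT JZL184 mouse A stood at the level of the WT VEH mice, apart from mice B and D.

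Ndufa4l2, a paralogue of the complex IV subunit Ndufa4 that is known for induction in hypoxia and for its expression in pericytes, was at 9.59 and 9.31 CPM in WT VEH, 16.4, 14.4 and 15.3 CPM in CD VEH, 9.73, 11.04 and 10.8 CPM in CD JZL184 and 13.6, 18.7 and 15.8 CPM in WT JZL184 mice. The 2 WT VEH mice were lower than all mice of the other groups. Its log2 fold-change was 0.70 ± 0.12 (SE, adjusted p = 0.00354) in CD VEH vs WT VEH, -0.54 ± 0.10 (SE, adjusted p = 0.00389) in CD JZL184 vs CD VEH and 0.76 ± 0.12 (SE, adjusted p = 0.00247) in WT JZL184 vs WT VEH, and each passed with the length offset (0.48, -0.31 and 0.59). Per transcript length, Ndufa4l2 made up 0.942% ± 0.015 of Ndufa4 and Ndufa4l2 together in WT VEH (SD, n = 2), 1.19% ± 0.0502 in CD VEH, 1.15% ± 0.111 in CD JZL184 and 1.36% ± 0.242 in WT JZL184 (SD, n = 3 each). The shares of the CD JZL184 mice overlapped with those of the CD VEH mice, unlike its CPM.

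Complex II oxidizes succinate through the flavoprotein Sdha and the iron-sulfur protein Sdhb, which Sdhc and Sdhd anchor in the membrane. None of the 4 genes passed in CD VEH vs WT VEH or in CD JZL184 vs CD VEH by edgeR. In the first 0 of them had an unadjusted p under 0.05 and DESeq2 called 1 (Sdhc, downregulated), and in the second 1 had an unadjusted p under 0.05 and DESeq2 called 1 (Sdha, upregulated). Sdha was at 1247 and 1277 CPM in WT VEH, 1009.8, 1181 and 1042 CPM in CD VEH, 1323, 1323 and 1334 CPM in CD JZL184 and 1248, 819 and 993 CPM in WT JZL184 mice. The CD JZL184 mice lay close together and above every other mouse, and WT JZL184 mouse A was apart from mice B and D. Its log2 fold-change of 0.38 ± 0.12 (SE, adjusted p = 0.0323) passed in CD JZL184 vs WT JZL184 but in 7 of 15 alternatives did not, among them leaving out any CD JZL184 mouse or WT JZL184 mouse B or D. The values of -0.23 ± 0.14 (SE, adjusted p = 0.226) in CD VEH vs WT VEH and 0.30 ± 0.12 (SE, adjusted p = 0.0818) in CD JZL184 vs CD VEH did not pass. Sdhc was downregulated in WT JZL184 vs WT VEH (-0.24 ± 0.06 SE, adjusted p = 0.0165), with all WT JZL184 mice below all other mice. Summed over the 4 genes, the level was 2583 ± 11.6 CPM in WT VEH (SD, n = 2), 2432 ± 76.4 CPM in CD VEH, 2615 ± 13.9 CPM in CD JZL184 and 2270 ± 344 CPM in WT JZL184 (SD, n = 3 each).

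In complex III, the 5 small subunits and the 4 large ones had different counts as well. Uqcr10, Uqcrh and Uqcrq, small proteins that flank the redox core, were upregulated in CD VEH vs WT VEH, and all 5 small subunits were downregulated in CD JZL184 vs CD VEH. Of the 5, 0 were called by edgeR in either comparison with the length offset, where 0 and 1 had an unadjusted p under 0.05. Uqcr10 was at 194 and 194 CPM in WT VEH, 249, 226 and 255 CPM in CD VEH, 197, 197 and 189.5 CPM in CD JZL184 and 239, 216 and 211 CPM in WT JZL184 mice. Its log2 fold-changes of 0.33 ± 0.08 (SE, adjusted p = 0.0109) and -0.32 ± 0.07 (SE, adjusted p = 0.00604) were -0.03 and 0.10 with the length offset. The lowest log2 fold-changes of the complex in CD JZL184 vs CD VEH were those of Uqcrb, which binds ubiquinone near the cytochrome b core (-0.36 ± 0.08 SE, adjusted p = 0.00805), and of Uqcrh (-0.36 ± 0.08 SE, adjusted p = 0.00616), the hinge protein, and they became 0.01 and 0.00 with the offset. Uqcrc1, a matrix-facing core protein, was at 438 and 474 CPM in WT VEH, 370.4, 424 and 393 CPM in CD VEH, 458, 488 and 474 CPM in CD JZL184 and 367, 356 and 371 CPM in WT JZL184 mice. Every WT VEH and CD JZL184 mouse was above every WT JZL184 and CD VEH mouse. It was upregulated in CD JZL184 vs CD VEH (0.26 ± 0.07 SE, adjusted p = 0.0154) and in CD JZL184 vs WT JZL184 (0.38 ± 0.07 SE, adjusted p = 0.00224), and downregulated in WT JZL184 vs WT VEH (-0.32 ± 0.08 SE, adjusted p = 0.0112). In CD VEH vs WT VEH the value of -0.20 ± 0.08 (SE, adjusted p = 0.0625) did not pass. It passed at -0.30 with the length offset, at -0.26 with the GC offset, at -0.21 by DESeq2 and at -0.26 without CD VEH mouse C. Of the catalytic pair, cytochrome c1 (Cyc1) rose in CD JZL184 vs WT JZL184 (0.23 ± 0.07 SE, adjusted p = 0.0197), and the Rieske protein Uqcrfs1 passed in none of the comparisons without the offset.

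The ratio of Uqcrc1 to Uqcr10 CPM, which needs no scaling between libraries, was 2.25 and 2.45 in WT VEH, 1.49, 1.88 and 1.54 in CD VEH, 2.32, 2.47 and 2.50 in CD JZL184 and 1.54, 1.65 and 1.76 in WT JZL184. The CD VEH and WT JZL184 mice thus lay below all WT VEH and CD JZL184 mice. The ratio of Ndufs1 to Ndufa3 in complex I was 3.88 ± 0.129 in WT VEH (SD, n = 2), 2.44 ± 0.173 in CD VEH, 3.93 ± 0.254 in CD JZL184 and 2.46 ± 0.585 in WT JZL184 (SD, n = 3 each). Unequal change of a long and a short transcript within a complex is all that such a ratio shows.

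Of the complexes, without the length offset, complex IV had the highest share of genes called in CD VEH vs WT VEH (68.8% upregulated), CD JZL184 vs CD VEH (87.5% downregulated) and WT JZL184 vs WT VEH (56.2% upregulated). This order was not kept with the offset: complex IV then had 6.25% of its genes upregulated and 6.25% downregulated in CD VEH vs WT VEH, where complex V had 11.8% each way, and 12.5% downregulated in CD JZL184 vs CD VEH, where complex I had 13.9% downregulated and complex III 22.2% upregulated. Summed over its 17 genes the level was 6434 ± 51.7 CPM in WT VEH (SD, n = 2), 7884 ± 382 CPM in CD VEH, 6157 ± 219 CPM in CD JZL184 and 7403 ± 307 CPM in WT JZL184 (SD, n = 3 each). The ranges of CD VEH (7447 to 8156 CPM) and WT JZL184 (7074 to 7681 CPM) overlapped with each other and lay above those of WT VEH (6397 to 6470 CPM) and CD JZL184 (5944 to 6382 CPM). With 2 WT VEH mice, no exact permutation test of a single value against 3 mice can give a p under 0.1.

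The heart isoforms of complex IV remained the main forms in every mouse. Per transcript length, Cox6a2 made up 93.5% to 95.4% of Cox6a1 and Cox6a2 together, Cox7a1 made up 74.0% to 77.8% of Cox7a1 and Cox7a2, and Cox8b made up 85.1% to 87.1% of Cox8a and Cox8b. Cox6a2 was at 774 and 790.4 CPM in WT VEH, 1032, 1059 and 1059 CPM in CD VEH, 788, 879.8 and 792 CPM in CD JZL184 and 1047, 899.8 and 912 CPM in WT JZL184 mice, with log2 fold-changes of 0.42 ± 0.09 (SE, adjusted p = 0.00664) in CD VEH vs WT VEH and -0.36 ± 0.08 (SE, adjusted p = 0.00657) in CD JZL184 vs CD VEH. Its widely expressed counterpart Cox6a1 had 0.40 ± 0.10 (SE, adjusted p = 0.0127) and -0.31 ± 0.09 (SE, adjusted p = 0.0185). Cox8b was at 282 and 299 CPM in WT VEH, 356, 353 and 374 CPM in CD VEH, 261, 289 and 260.1 CPM in CD JZL184 and 376, 403 and 326 CPM in WT JZL184 mice, with 0.31 ± 0.09 (SE, adjusted p = 0.0272) and -0.42 ± 0.08 (SE, adjusted p = 0.00456). For Cox7a1 the fold-change passed in CD JZL184 vs CD VEH (-0.42 ± 0.08 SE, adjusted p = 0.00464) but not in CD VEH vs WT VEH (0.26 ± 0.09 SE, adjusted p = 0.0534). With the length offset, none of these 4 genes passed in either comparison, Cox8b and Cox7a1 had the opposite sign in both, and Cox6a1 had it in CD JZL184 vs CD VEH (0.04).

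Cox7a2, the widely expressed form of the Cox7a pair, was at 224 and 216 CPM in WT VEH, 317, 274 and 315 CPM in CD VEH, 217, 215 and 203 CPM in CD JZL184 and 286, 269 and 274 CPM in WT JZL184 mice. The CD VEH and WT JZL184 mice lay above all WT VEH and CD JZL184 mice. Its log2 fold-changes were 0.46 ± 0.08 (SE, adjusted p = 0.00369) in CD VEH vs WT VEH and -0.51 ± 0.07 (SE, adjusted p = 0.00201) in CD JZL184 vs CD VEH, and only the latter passed with the length offset (-0.20). Cox7b, another small membrane subunit, had 0.43 ± 0.09 (SE, adjusted p = 0.00748) and -0.54 ± 0.08 (SE, adjusted p = 0.00235), and again the latter passed with the offset (-0.32). The subunit Cox5a had the lowest value of the complex in CD VEH vs WT VEH (0.04 ± 0.07 SE, adjusted p = 0.661), and the regulatory subunit Cox4i1 the highest in CD JZL184 vs CD VEH (-0.14 ± 0.06 SE, adjusted p = 0.121). Neither passed, although Cox5a was lower in CD VEH vs WT VEH with the length offset (-0.24).

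Cox4i2, a Cox4 isoform of lung, vascular smooth muscle and pericytes, had the highest fold-change of the 82 genes in both comparisons with WT VEH. It was at 4.01 and 4.27 CPM in WT VEH, 7.41, 7.26 and 7.28 CPM in CD VEH, 4.47, 5.30 and 5.57 CPM in CD JZL184 and 5.89, 9.02 and 7.17 CPM in WT JZL184 mice. The 2 WT VEH mice were below all others. Its log2 fold-change was 0.82 ± 0.16 (SE, adjusted p = 0.00504) in CD VEH vs WT VEH and 0.83 ± 0.16 (SE, adjusted p = 0.00484) in WT JZL184 vs WT VEH, both passing with the length offset too (0.56 and 0.61), and -0.52 ± 0.13 (SE, adjusted p = 0.0141) in CD JZL184 vs CD VEH, which did not (-0.22). Per transcript length it made up 0.431% ± 0.00309 of Cox4i1 and Cox4i2 in WT VEH (SD, n = 2), 0.715% ± 0.0105 in CD VEH, 0.550% ± 0.0628 in CD JZL184 and 0.749% ± 0.127 in WT JZL184 (SD, n = 3 each). Markers of other cell types are given beside Cox4i2 and Ndufa4l2. In CD JZL184 mice the smooth muscle sum lay below both WT VEH mice, whereas Cox4i2 and Ndufa4l2 lay above both. The summed level of 4 smooth muscle markers was 78.7 to 89.6 CPM in WT VEH, 91.1 to 100.3 CPM in CD VEH, 57.5 to 73.6 CPM in CD JZL184 and 120 to 159 CPM in WT JZL184, with Myh11 and Tagln upregulated in CD VEH vs WT VEH, Acta2 at a log2 fold-change of -0.15 that did not pass, and Cnn1 below the filter. Of the 3 tested smooth muscle markers, only Myh11 passed there with the length offset. That of 5 endothelial markers was 523 to 528 CPM in WT VEH, 678 to 752 CPM in CD VEH, 519 to 602 CPM in CD JZL184 and 797 to 834 CPM in WT JZL184, with 4 of 5 upregulated in CD VEH vs WT VEH and 5 of 5 with the length offset. That of 5 macrophage markers was 204 to 218 CPM in WT VEH, 268 to 353 CPM in CD VEH, 180.4 to 209.9 CPM in CD JZL184 and 273 to 469 CPM in WT JZL184, with 4 of 5 upregulated in CD VEH vs WT VEH (2 of 5 with the offset), 5 of 5 downregulated in CD JZL184 vs CD VEH and 5 of 5 upregulated in WT JZL184 vs WT VEH (5 of 5 with the offset in both). That of 5 fibroblast markers was 674 to 688 CPM in WT VEH, 785 to 896 CPM in CD VEH, 617 to 720 CPM in CD JZL184 and 797 to 992 CPM in WT JZL184, with 1 of 5 upregulated in CD VEH vs WT VEH and 1 downregulated in CD JZL184 vs CD VEH (2 and 2 with the offset). Of the 7 cardiomyocyte markers, 0 were upregulated and 2 downregulated in CD VEH vs WT VEH, both without and with the offset. In CD JZL184 vs CD VEH 1 was upregulated and 1 downregulated (2 and 0 with the offset). In WT JZL184 vs WT VEH 0 were upregulated and 1 downregulated (0 and 2 with the offset). None of these markers was at 0 in every mouse. Their part in the fold-changes was not tested.

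**Figure D5:**
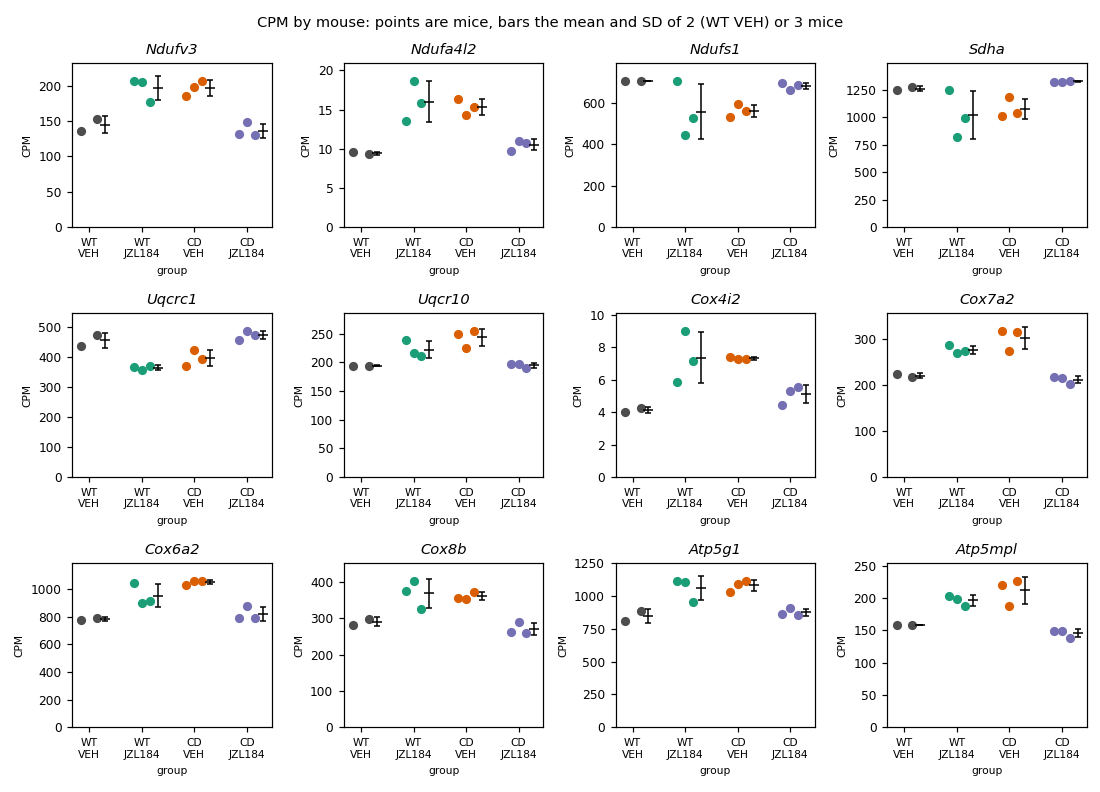
CPM (vertical axis, from 0) of 12 subunit genes in each mouse by group, with points for mice and bars for the mean and SD. The means of Ndufs1, Sdha and Uqcrc1 are highest in WT VEH and CD JZL184, and those of the other 9 genes are highest in CD VEH or WT JZL184.

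In complex V, the catalytic head (F1), the ring of c subunits and the stalk and membrane subunits had different counts. Of the 3 c ring genes 2 and of the 9 stalk and membrane genes 5 were upregulated in CD VEH vs WT VEH, and 2 and 7 were downregulated in CD JZL184 vs CD VEH. Of 5 F1 genes, Atp5e alone was upregulated in CD VEH vs WT VEH and downregulated in CD JZL184 vs CD VEH. With the length offset 0 F1 genes were called by edgeR in either comparison (0 and 1 had an unadjusted p under 0.05), 1 c ring gene was called in each direction in both, and of the stalk and membrane genes 1 was called in each direction in the first and 1 downregulated in the second. The large F1 subunits carry the nucleotide sites, and Atp5a1, the α subunit, was at 3445 and 3487 CPM in WT VEH, 2898, 3184 and 2980.4 CPM in CD VEH, 3509, 3449 and 3480.5 CPM in CD JZL184 and 3488, 2467 and 2821 CPM in WT JZL184 mice. It had the lowest log2 fold-change of complex V in CD VEH vs WT VEH (-0.20 ± 0.12 SE, adjusted p = 0.222) and the highest in CD JZL184 vs CD VEH (0.20 ± 0.11 SE, adjusted p = 0.159), neither of which passed. Atp5mpl, a small membrane subunit with a transcript of 489 bp, was at the other end. It was at 158 and 158 CPM in WT VEH, 220.2, 188 and 227 CPM in CD VEH, 149, 149 and 138 CPM in CD JZL184 and 203, 199 and 187 CPM in WT JZL184 mice, with 0.42 ± 0.08 (SE, adjusted p = 0.00619) and -0.54 ± 0.08 (SE, adjusted p = 0.00224), and passed in neither comparison with the length offset (0.08 and -0.15). Atp5j2, the f subunit of the membrane part, was at 407 and 418 CPM in WT VEH, 567, 511 and 569.9 CPM in CD VEH, 398, 396 and 388 CPM in CD JZL184 and 524, 529.7 and 486 CPM in WT JZL184 mice. Its log2 fold-changes of 0.41 ± 0.08 (SE, adjusted p = 0.00452) and -0.48 ± 0.07 (SE, adjusted p = 0.00226) both passed with the offset (0.20 and -0.25).

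Atp5g1, Atp5g2 and Atp5g3 encode the same mature c subunit, of which the ring that turns with proton flow is built. Atp5g1 was at 812 and 888 CPM in WT VEH, 1033, 1096 and 1117 CPM in CD VEH, 862, 907 and 859.6 CPM in CD JZL184 and 1118, 1111 and 953 CPM in WT JZL184 mice, with 0.35 ± 0.09 (SE, adjusted p = 0.0154) in CD VEH vs WT VEH and -0.30 ± 0.08 (SE, adjusted p = 0.0144) in CD JZL184 vs CD VEH. Atp5g3 was at 1004 and 961 CPM in WT VEH, 961, 935 and 948 CPM in CD VEH, 924, 941 and 902 CPM in CD JZL184 and 902, 919 and 868 CPM in WT JZL184 mice, with -0.05 ± 0.07 (SE, adjusted p = 0.588) and -0.04 ± 0.06 (SE, adjusted p = 0.641), neither of which passed. Both passed by edgeR with the length offset, at -0.31 (adjusted p = 0.00921) and, with the sign turned, 0.26 (adjusted p = 0.0128). Taking the shortest principal transcript of each gene, Atp5g1 made up 42.5% and 45.6% of the 3 genes in WT VEH, 48.0%, 50.3% and 50.3% in CD VEH, 45.7%, 46.3% and 46.0% in CD JZL184 and 51.1%, 51.0% and 48.5% in WT JZL184, and Atp5g3 shifted the other way. The principal transcripts of Atp5g1 range from 596 to 4715 bp, so its length offset depends on the transcript used: with the shortest, the value in CD JZL184 vs CD VEH was 0.01. The same holds for Ndufb2, whose transcripts range from 455 to 4371 bp.

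Other genes of oxidative metabolism are given for comparison. Among 13 TCA cycle genes, 0 were upregulated and 3 downregulated in CD VEH vs WT VEH (median -0.11), and 5 were upregulated and 0 downregulated in CD JZL184 vs CD VEH (median 0.09). The 3 are 23.1% of the list, beside 15.4% of all tested genes, and the 5 are 38.5%, beside 16.8%. Ogdh, a subunit of the α-ketoglutarate dehydrogenase, was at 1664 ± 84.5 CPM in WT VEH, 1240.3 ± 164 CPM in CD VEH, 1746 ± 79.8 CPM in CD JZL184 and 1155 ± 101 CPM in WT JZL184 (SD, n = 2 in WT VEH and 3 in the other groups), and Cs, citrate synthase, was at 1135 ± 43.2 CPM in WT VEH, 889.8 ± 65.5 CPM in CD VEH, 1111 ± 17.7 CPM in CD JZL184 and 893 ± 112 CPM in WT JZL184 (SD, n = 2 in WT VEH and 3 in the other groups). Among 14 genes of electron carriers and ubiquinone synthesis, 2 were downregulated (Pdss2 and Coq5) in CD VEH vs WT VEH, and in CD JZL184 vs CD VEH 3 were upregulated and Cycs, which encodes cytochrome c, was downregulated. The 2 are 14.3% of the list, below the 15.4% of all tested genes. In CD JZL184 vs CD VEH the shares were 21.4% upregulated and 7.14% downregulated, beside 16.8% and 17.0%. The TCA cycle counts were the same with the length offset, and those of the carriers were 0 upregulated and 4 downregulated in the first comparison and 6 and 1 in the second. Of 46 tested assembly factors 9 were upregulated and 6 downregulated in CD VEH vs WT VEH, and 6 and 13 in CD JZL184 vs CD VEH. In the first comparison 19.6% of the list was upregulated, beside 15.0% of all tested genes, and the downregulated share was below the 15.4% of all tested genes. With the length offset the counts were 0 and 13 in the first and 11 and 4 in the second. Of 12 regulators of mitochondrial genes, Gabpa, Polrmt and Esrrg were downregulated in CD VEH vs WT VEH and upregulated, with Ppargc1b, in CD JZL184 vs CD VEH. That is 25.0% downregulated, beside 15.4% of all tested genes, and 33.3% upregulated, beside 16.8%. Esrrg, an estrogen-related nuclear receptor that drives oxidative genes in the heart, was at 38.2 ± 2.56 CPM in WT VEH, 26.0 ± 3.51 CPM in CD VEH, 38.3 ± 1.77 CPM in CD JZL184 and 24.7 ± 1.43 CPM in WT JZL184 (SD, n = 2 in WT VEH and 3 in the other groups). Gabpa, Polrmt and Esrrg kept their calls in both comparisons with the length offset, and Ppargc1b did not.

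Among the 13 protein-coding genes of the mitochondrial genome, 2 were upregulated (mt-Atp6 and mt-Co3) in CD VEH vs WT VEH, 9 were downregulated in CD JZL184 vs CD VEH and 5 were upregulated in WT JZL184 vs WT VEH, and with the length offset 0 were called by edgeR in these comparisons, where 3, 2 and 1 had an unadjusted p under 0.05. Without the offset these were 15.4%, 69.2% and 38.5% of the list, beside 15.0%, 17.0% and 15.4% of all tested genes in the same directions. Ndufab1 (the acyl carrier protein of complex I) and Atpif1 (the inhibitor of complex V), which the naming rule leaves out, did not pass in these comparisons. Over the 11 mice, the tested genes outside the set whose CPM was most like the summed CPM of the 83 genes were the proteasome subunit gene Psmb7 (Spearman's rho 0.973), Cnot2 of a deadenylase complex (0.964) and Mrrf, a mitochondrial ribosome recycling factor (0.955). This is a description over mice of 4 groups.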

How the data were processed

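RNA of 11 mouse hearts was quantified by the authors with Salmon 0.7.2 against Ensembl release 85 and summarised per gene, and the deposited table holds estimated counts that are not normalised (the labels name the build mm10). All columns were assigned to a group by name (0 were left out). Identifiers were matched without version to GENCODE mouse release 21 (22315 of 22608 matched). The members and gene lists were chosen with earlier results of these data known. Estimated counts were rounded and scaled by TMM, genes were kept from an average log2 CPM of 1 upward (11319 of 22608), and all 4 groups were fitted together with the quasi-likelihood test of edgeR 4.0.16 (limma 3.58.1, R 4.3.3) and Benjamini-Hochberg adjustment. The common biological coefficient of variation was 9.13%. SE is the absolute log2 fold-change divided by the square root of F. The length offset was a loess fit (span 0.5) of each mouse's log2 ratio to the mean over mice on log2 transcript length, for 11225 tested genes with a length, using the median of each gene's principal transcripts. A variant with the shortest principal transcript was chosen after seeing the data. Alternatives included DESeq2 1.42.0, other scaling and filters, a GC offset and leaving out each mouse. Per-mouse values were described for isoform pairs, for the highest and lowest fold-change of each complex, for catalytic subunits and for the 3 lowest interaction p-values, not in every case. Scripts (Python 3.11.15, pandas 2.3.3) were tested on simulated data. A floor of 3 counts is 0.0325 to 0.0431 CPM and covers counting error only. Reads shared with near-identical pseudogenes make single subunit levels uncertain. Sums include all 83 members, and called counts and medians the 82 tested. Of the 83, 1 was left out of the heat map and is not reported here by itself.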

Additional observations from a re-analysis of the deposited data

Results flagged for a closer look

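The log2 effect of JZL184 differed between CD and WT mice, by the interaction term of edgeR with an adjusted p under 0.05, for 58 of the 82 genes tested. The 23 of them that were examined under every alternative are given here. Values are the effect in CD mice minus the effect in WT mice on the log2 scale. The difference was negative for Cox4i2 (-1.34), Ndufa4l2 (-1.31), Ndufv3 (-0.97), Atp5mpl (-0.85), Cox7a2 (-0.84), Cox7b (-0.82), Atp5j2 (-0.80), Cox8b (-0.76), Ndufa3 (-0.73), Cox6a2 (-0.64), Atp5g1 (-0.62), Cox7a1 (-0.58), Uqcr10 (-0.52), Ndufb2 (-0.52), Cox6a1 (-0.51), Uqcrb (-0.49) and Uqcrh (-0.49). It was positive for Ndufs1 (0.62), Sdha (0.61), Uqcrc1 (0.58), Atp5a1 (0.45), Sdhc (0.33) and Cyc1 (0.27). The WT effect rests on 2 WT VEH mice. With the length offset the interaction of Cox8b, Cox7a1, Uqcr10, Cox6a1, Uqcrb and Uqcrh turned positive (0.05 to 0.21) and did not pass, and Atp5mpl, Ndufa3 and Cox6a2 did not pass (-0.17 to -0.08). The other 14 passed with the same sign, of which Atp5g1 (-0.07) and Ndufb2 (0.14, turned) did not pass when the offset used the shortest transcript. Of 19 alternatives, Cyc1 lost its call in 11 and Atp5a1 in 10.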

How the results depend on the processing

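The replicate numbers of the sample labels could not be matched to the columns of the table, which end in letters. No source says that a letter shared between groups marks a pair, and same-letter mice of the 2 CD groups did not deviate together over 11319 genes (correlations of 0.04, -0.10 and -0.00 for A, C and E). Of the 8 same-letter pairs over all groups, the lowest correlation was -0.25 (C in CD JZL184 and WT VEH) and the highest 0.31 (A in CD JZL184 and WT JZL184). With the letter as a replicate block, chosen after seeing the data, the up and down counts were 8 and 1 in CD VEH vs WT VEH, 2 and 0 in WT JZL184 vs WT VEH and 0 and 9 in CD JZL184 vs WT JZL184, and within 1.5 times the reported counts in CD JZL184 vs CD VEH (2 and 51) and for the interaction (43). Relative scaling (RLE) and leaving out the mitochondrial genome changed the call of none of the 88 gene and comparison pairs examined. With the length offset (in brackets, with the shortest principal transcript), CD VEH vs WT VEH had 6 (5) subunit genes upregulated, 7 (7) downregulated and a median of -0.07 (-0.06). CD JZL184 vs CD VEH had 6 (6), 9 (7) and 0.04 (0.03), WT JZL184 vs WT VEH had 4 (3), 12 (12) and -0.12 (-0.11), and CD JZL184 vs WT JZL184 had 19 (19), 7 (6) and 0.07 (0.07). Interactions fell from 58 to 36 (33). At an adjusted p under 0.01 the up and down counts were 12 and 0, 0 and 34, 3 and 0, and 1 and 19 in the same order. The shares of all tested genes at this stricter limit are not given, so these counts cannot be set against a background. With the other groups left out of the model, 1 gene was downregulated in CD VEH vs WT VEH, 5 were upregulated in CD JZL184 vs CD VEH, 4 were upregulated and 0 downregulated in WT JZL184 vs WT VEH, and 2 were upregulated in CD JZL184 vs WT JZL184. The GC offset gave 1 downregulated in CD VEH vs WT VEH. DESeq2 gave 3 downregulated there, 4 downregulated in WT JZL184 vs WT VEH and 8 upregulated in CD JZL184 vs WT JZL184. With no filter, 1 was upregulated in CD JZL184 vs CD VEH and 12 in WT JZL184 vs WT VEH.

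Leaving out each mouse in turn, upregulated genes ranged from 2 to 37 in CD VEH vs WT VEH (2 without WT VEH C, 10 without WT VEH D, 20 without CD VEH E) and downregulated from 0 to 2 (2 without CD VEH C). In CD JZL184 vs CD VEH they ranged from 0 to 2 and from 35 to 53 (35 without mouse E of either group). In WT JZL184 vs WT VEH they ranged from 1 to 24 (1 without WT VEH C, 4 without WT VEH D) and from 0 to 10 (10 without WT JZL184 A). In CD JZL184 vs WT JZL184 they ranged from 1 to 11 (11 without WT JZL184 A) and from 23 to 42 (23 without CD JZL184 E). Interactions ranged from 47 to 63. Of the 88 pairs, 25 lost their call without WT VEH C, 19 without WT VEH D, 9 without CD VEH E and 7 or fewer without any other mouse. With 2 WT VEH mice, leaving out 1 assumes that the other varies like the remaining groups.

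Among these 88 pairs, the sign turned with the length offset (shortest transcript in brackets) in CD VEH vs WT VEH for Uqcr10, -0.03 (-0.00), Cox8b, -0.08 (-0.05), Cox5a, -0.24 (-0.22), Cox7a1, -0.12 (-0.09), and Ndufb2 (-0.07). In CD JZL184 vs CD VEH it turned for Uqcr10, 0.10 (0.07), Cox6a1, 0.04 (0.02), Cox8b, 0.04 (0.02), Cox4i1, 0.15 (0.13), Atp5g3, 0.26 (0.23), Uqcrb, 0.01, Uqcrh, 0.00, Cox7a1, 0.03, Ndufb2 (0.03) and Atp5g1 (0.01). In WT JZL184 vs WT VEH it turned for Cox8b, -0.00, and Atp5mpl (-0.01). For the interaction it turned for Cox7a1, 0.19 (0.15), Uqcr10, 0.21 (0.16), Cox6a1, 0.11 (0.06), Uqcrb, 0.15 (0.10), Uqcrh, 0.13 (0.09), Cox8b, 0.05, and Ndufb2 (0.14). The cause was not tested beyond the offset's own construction.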
